A study of Mus musculus with 27 samples.

Results

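The early transcript response to ionizing radiation was compared between mouse embryonic fibroblasts (MEF) that have and that lack PKBalpha, the protein kinase encoded by Akt1. The quantity examined was a difference of responses, namely the 4 h minus untreated change in the wild-type line less the mean of the same change in the PKBa -/- line and the PKBa -/- R line. It used the 18 arrays of these 6 groups, chosen by sample title, out of 27 in the series; the other 9 arrays are the 24 h groups. The groups were the PKBa -/- line 4 h after 10 Gy of gamma radiation and untreated, the PKBa -/- R line, described in the labels as the knockout with PKBalpha put back, 4 h after 10 Gy and untreated, and the wild-type line 4 h after 10 Gy and untreated, with 3 biological replicates in each.

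Per the labels, the MEF were female, had reached passage 45, and were fed medium with 10% serum for 24 h ahead of the irradiation. With a single line per genotype, genotype and line cannot be told apart, and the spread between replicates is that of repeated samples of a line. The duration of culture of the untreated cells is not given, so the effect of irradiation and that of added hours of culture cannot be told apart either. Groups follow the titles because the descriptions of the irradiated wild-type samples call them untreated.

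DNA double-strand breaks activate the kinase ATM, which stabilizes the transcription factor p53. Targets of p53 such as Cdkn1a halt the cell cycle, and others promote repair, end the signal or start cell death. PKBalpha acts downstream of growth-factor receptors and PI3 kinase, where it favours survival, growth and lipid synthesis and inhibits FOXO factors. Cholesterol synthesis is controlled as a unit by the sterol-regulated factor SREBP2, and genes of the G2 and M phases are controlled as a unit by FOXM1, B-MYB and the DREAM complex.

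Akt1 separated the lines as the knockout label implies, but the line labelled R did not carry the wild-type level of the transcript. Its intensity, in linear array units, was 22.8, 34.1 and 65.5 in PKBa -/- cells at 4 h and 2.35, 52.7 and 24.9 in untreated PKBa -/- cells. The line labelled R read 6.25, 34.6 and 34.7 at 4 h and 41.9, 29.3 and 7.44 untreated, and wild-type cells read 4502, 4546 and 3541 at 4 h and 3308, 2986 and 4465 untreated. Background was taken as 48.3, the highest of 243 readings of 9 Y-linked probe sets in these female cells, so by this probe set, the brightest of 4, the PKBa -/- and R lines lay near or below it. By another, the geometric means were 11 and 2.36 in PKBa -/- cells at 4 h and untreated and 68.5 and 55.8 in line R, against 2372 and 2128 in wild-type cells. A dimmer one gave 26.2 and 55.0 in PKBa -/- cells and 65.3 and 59.5 in line R, against 105 and 154 in wild-type cells. These put line R slightly above background and below the wild type, and the remaining probe set was below background in all groups. The labels do not describe the construct put into line R, and whether the probe set would detect it was not tested. Akt2, the other PKB gene abundant in many tissues, was present in all groups, at 634 to 809 in PKBa -/- cells at 4 h and 795 to 897 in wild-type cells at 4 h, and its response difference was 0.15 ± 0.18 (log2, SE; limma adjusted p = 1), and -0.27 with the mean of all its probe sets.

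The 18 arrays had 10577 to 11343 genes above background each. Of these arrays 4 stood apart by a higher 3' to 5' signal ratio of the Gapdh control, a sign of shorter labelled RNA. They were untreated PKBa -/- replicate 2, untreated line R replicate 1, wild-type 4 h replicate 0 and untreated wild-type replicate 2. Their log2 Gapdh ratios were -0.187 to 0.00292, against -0.466 to -0.35 in the other 14. Leaving them out takes 1 of the 3 arrays from each of the 4 groups they belong to. Many results, but not all, are given with and without these arrays. By their mean over the 18 arrays, defining fibroblast markers were all above background, 12 of 12. Of 11 epithelial and mesothelial markers 4 were above background by the same mean (Epcam, Krt19, Upk3b and Wt1), which does not show that each line expressed them. The summed level of the list was 265 to 363 in PKBa -/- cells at 4 h, 174 to 329 in line R at 4 h and 13445 to 17209 in wild-type cells at 4 h. Untreated cells had 203 to 377, 321 to 457 and 18879 to 23059 in the same order of lines. The lines thus differ in these genes irrespective of irradiation, and the part of this difference in the results below was not tested.

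Of 18193 genes, 4 had a response at 4 h that differed between the wild-type line and the mean of the other lines (limma, Benjamini-Hochberg adjusted p below 0.05), which is 0.022% of the genes tested. Ebf3 and Nkd1 had the lower response in wild type, and D630004K10Rik and C430042M11Rik the higher one (0.011% of genes in each direction). At an unadjusted p below 0.05 there were 1141 genes, or 6.27%, of which 619 (3.4%) were higher in wild type and 522 (2.87%) were lower. The median difference over all genes was 0.04 on the log2 scale, and 54.2% of all genes had a positive and 45.8% a negative one. Each difference is given as wild type minus the other lines, so a negative value means a lower response in wild type. The PKBa -/- and R lines did not differ from each other in the response of any gene (0%; 544 genes, 2.99%, had an unadjusted p below 0.05), which does not show that they respond alike. Without the 4 arrays that stand apart, 17 genes passed the test, 12 higher (0.066%) and 5 lower (0.0275%), which is 0.0934% in all, and the share at an unadjusted p below 0.05 was 9.88%. Some of the 17 rest on signals at background. Fstl3, Il1r2 and Trim66, named after their values were seen, had 0 group means above it, and Gm4961, named likewise, had 1. B230311B06Rik, also named after its values were seen, was below background in wild type, with means of 23.2 at 4 h and 4.67 untreated. With 1 array left out at a time the count was 4 to 6, except that it was 8, 7 and 14 without wild-type 4 h replicate 0, 1 and 2, and 9 and 14 without untreated wild-type replicate 0 and 2. All 4 genes stayed called with any 1 array left out.

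**Figure D1:**
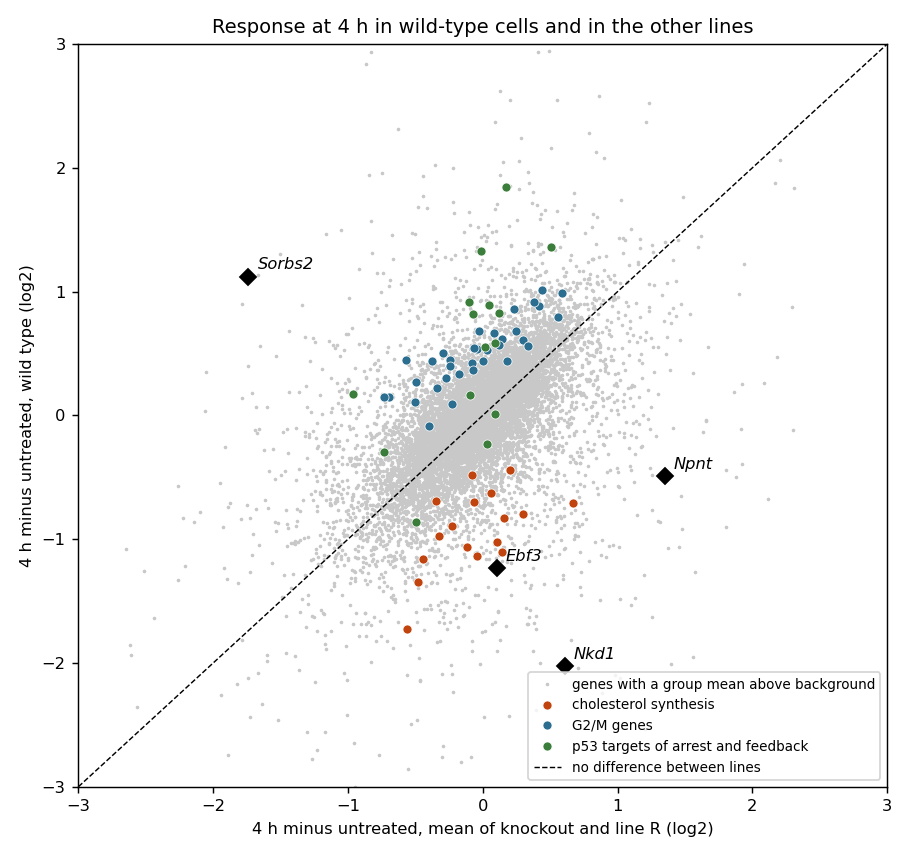
Response at 4 h of each gene in the wild-type line (vertical axis, log2 of 4 h over untreated intensity) against the mean response in the PKBa -/- and R lines (horizontal axis, same unit), for 11950 genes with a group mean above background. A further 14 such genes lie outside the axes. Diamonds mark Ebf3, Nkd1, Npnt and Sorbs2, and coloured points mark gene lists; genes of cholesterol synthesis lie below the line of equal response and G2/M genes above it.

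Ebf3, a transcription factor of the EBF family that acts in neural and mesenchymal development, fell in wild-type cells alone. Its intensity was 130.5, 120.2 and 118 in PKBa -/- cells at 4 h and 128, 103 and 119 in untreated PKBa -/- cells. Line R had 187, 196 and 181 at 4 h and 157, 179 and 183 untreated. Wild-type cells had 159, 162 and 157 at 4 h and 388, 341 and 398 untreated. The wild-type groups do not overlap, whereas the 4 h and untreated readings of the other lines lie close together. The log2 change was 0.08 in PKBa -/- (adjusted p = 0.84 by limma) and 0.12 in line R (adjusted p = 0.69), against a 2.35-fold fall in wild type (log2 -1.24, adjusted p = 0.00064). The difference was -1.34 ± 0.14 (SE, n = 3 arrays per group; limma adjusted p = 0.0028), and it was 1 of 3 genes (0.0165%) that passed against PKBa -/- alone (-1.32 ± 0.16, adjusted p = 0.017 by limma), and 1 of 3 (0.0165%) against line R alone (-1.36, adjusted p = 0.012). At 24 h the geometric means were 136 in PKBa -/-, 203 in line R and 174 in wild type. It was called in 28 of 30 processing settings, with limma adjusted p between 0.00034 and 0.23. The exceptions were the mean of all its probe sets (-1.19, adjusted p = 0.23) and a prior variance that follows intensity (adjusted p = 0.058). It was -1.32 ± 0.16 (adjusted p = 0.027) without the arrays that stand apart. The other probe sets of Ebf3 gave -1.47 and -0.77 and did not pass on their own.

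Nkd1, an intracellular antagonist of Wnt signalling that is itself a Wnt target, had group means above background in the wild-type line only and fell there. It read 40.5, 29.9 and 51.5 in PKBa -/- cells at 4 h and 42.5, 27.6 and 34.8 untreated. Line R read 42.3, 47.1 and 40.1 at 4 h and 31.4, 22.2 and 13.9 untreated. Wild-type cells read 80.3, 84.3 and 101 at 4 h and 449.8, 319 and 322 untreated. The wild-type groups are far apart, and the readings of the other lines are at the level of background, so a fall could not be measured there. The wild-type level was 4.08-fold lower at 4 h (log2 -2.03, adjusted p = 0.01 by limma), and the response difference was -2.64 ± 0.35 (limma adjusted p = 0.014). Part of that difference comes from line R, whose readings were higher at 4 h than untreated while all below background. At 24 h the geometric mean was 30 in PKBa -/- and 24.5 in line R, against 251 in wild type. The call was lost without the arrays that stand apart (-2.67 ± 0.47, adjusted p = 0.097 by limma; 0.0027 to 0.61 over all settings) and with the mean of all probe sets (-1.24, adjusted p = 0.61), and the adjusted p was 0.058 with a prior variance that follows intensity. The 3 other probe sets gave -0.24, -0.77 and -1.31 and did not pass. In 19 listed Wnt targets and antagonists, 16 of them measured, Nkd1 was the only one whose response difference was called; the list's median difference was -0.35 and its range -2.64 to 2.59.

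The other called genes are unannotated transcripts at very low signal. D630004K10Rik read 38.9, 33.3 and 38.8 in PKBa -/- cells at 4 h and 29.8, 40.1 and 46.5 untreated, and line R read 26.8, 29.7 and 29.1 at 4 h and 36.3, 50.7 and 65.1 untreated. Wild-type cells read 18.9, 24.6 and 24.3 at 4 h and 2.98, 2.73 and 2.24 untreated. Only the untreated line R had a mean above background, so the difference of 3.51 ± 0.27 (limma adjusted p = 8.7e-05) describes signals that are mostly not distinguishable from background. C430042M11Rik, named after its values were seen, was below background in all 6 groups, and its difference was 5.03 ± 0.66 (adjusted p = 0.014 by limma; 1.44 and 0.15 with an offset of 16 before the log). Neither gene was called when the arrays that stand apart were left out and the prior variance followed intensity. No fold is given for either gene.

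Npnt and Sorbs2 had responses of opposite sign in wild type and the other lines, but the difference missed the threshold; they were chosen after their values were seen because a fit whose prior variance follows intensity calls them (adjusted p = 0.046 for both). Npnt encodes nephronectin, an extracellular matrix ligand of integrin alpha 8 beta 1. It read 658, 679 and 678 in PKBa -/- cells at 4 h against 186, 219 and 256 untreated, 563, 469 and 546 in line R at 4 h against 310.4, 275 and 179 untreated, and 1265, 959 and 1798 in wild-type cells at 4 h against 1979.8, 2239 and 1366 untreated. Npnt rose in PKBa -/- cells (log2 1.62, limma adjusted p = 0.037); the change was 1.08 in line R (adjusted p = 0.087) and -0.49 in wild type (adjusted p = 0.39), where the groups overlap. The response difference was -1.84 ± 0.32 (limma adjusted p = 0.08), and all 5 of its probe sets were negative, from -3.27 to -1.25.

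Sorbs2, an adaptor protein of the actin cytoskeleton and focal adhesions, fell in line R (log2 -2.09, limma adjusted p = 0.034), with -1.39 in PKBa -/- (adjusted p = 0.13) and 1.12 in wild type (adjusted p = 0.13). It read 185, 156 and 182 in PKBa -/- cells at 4 h and 396, 427 and 555 untreated. Line R read 175, 249.7 and 142 at 4 h and 506, 972 and 971 untreated, and wild-type cells read 95.5, 40.1 and 50.1 at 4 h and 37.6, 26.4 and 18.8 untreated, where all 3 untreated readings are below background. The difference was 2.86 ± 0.44 (adjusted p = 0.054 by limma), and its other probe sets gave 1.05, -0.01 and 0.20, far from this size.

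**Figure D2:**
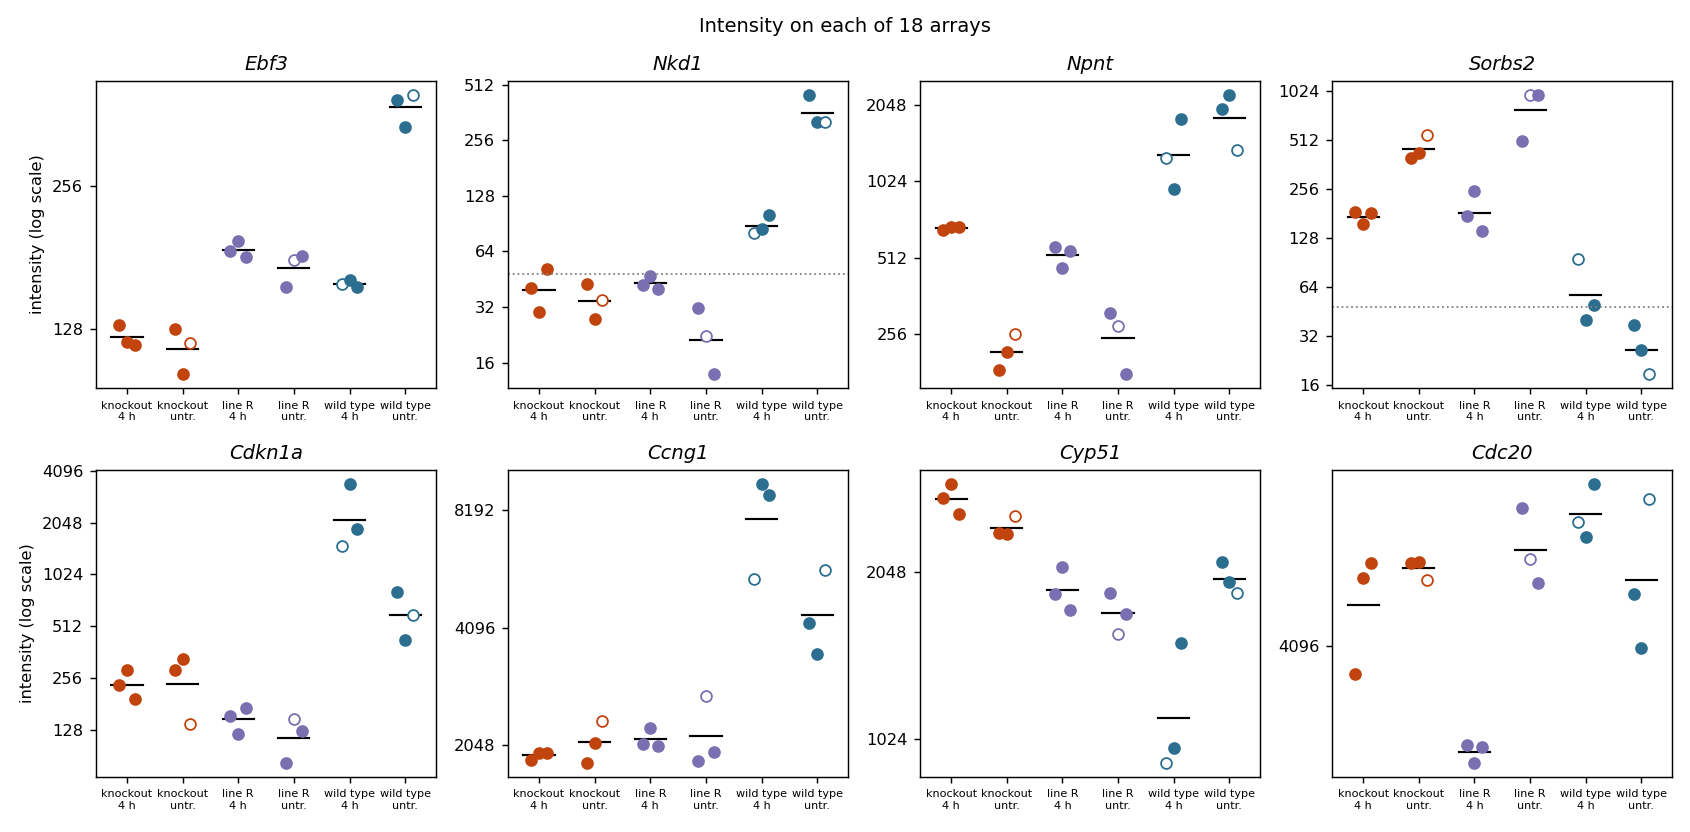
Intensity on a log axis of 8 genes in each array of the 6 groups, with PKBa -/- at 4 h and untreated, line R at 4 h and untreated, and wild type at 4 h and untreated from left to right. Bars are geometric means, open circles are the arrays that stand apart and the dotted line is background (48.3). Ebf3 and Nkd1 are lower at 4 h than untreated in wild type, and Cdkn1a is higher.

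The gene lists below were read by their counts and medians beside those of all genes, and no list member passed the adjusted test of the response difference except Nkd1. The genes listed by name are the members with the smallest p in each list; others are named after their values were seen. Calls within a line rest on few arrays, so their counts with arrays left out are given beside them where they moved by over 1.5 times. Each count at an unadjusted p below 0.05 stands against 3.4% of all genes for higher and 2.87% for lower responses. Those shares are 5.82% and 4.06% without the arrays that stand apart.

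**Figure D3:**
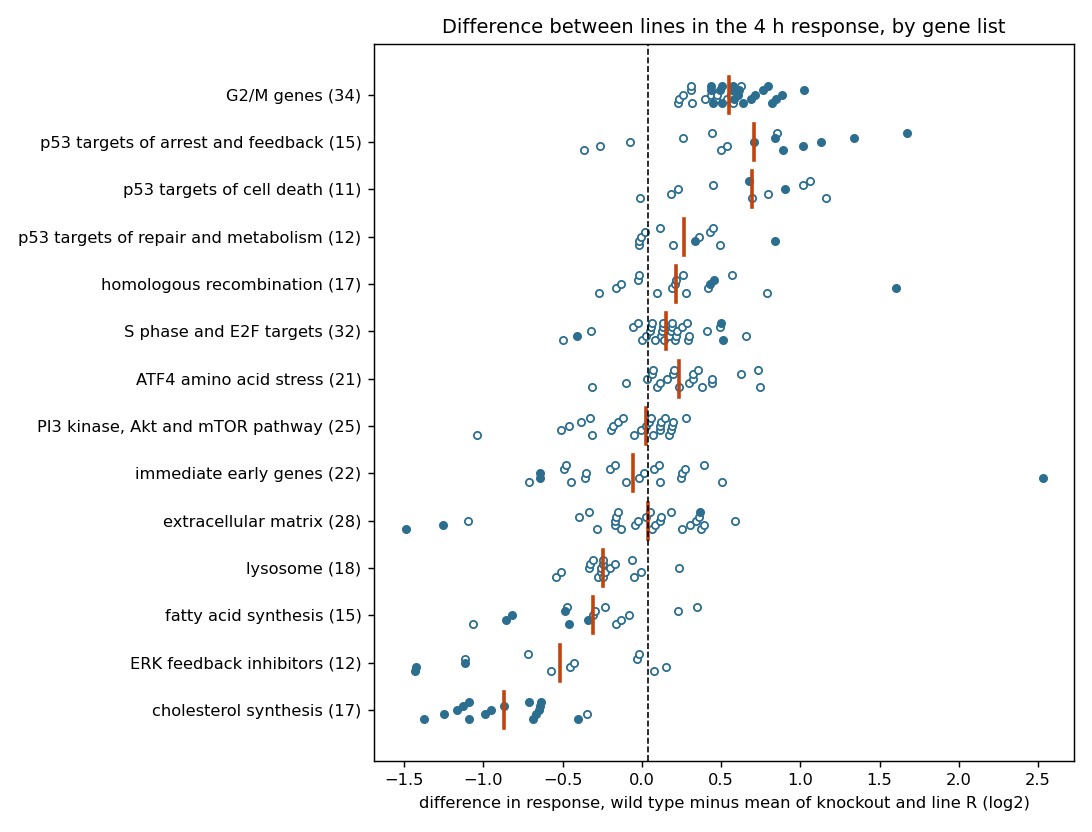
Response difference (log2, wild type minus the mean of the PKBa -/- and R lines) of each measured gene of 14 lists. Filled points have an unadjusted p below 0.05, red bars are list medians and the dashed line is the median of all genes (0.04). All 17 genes of cholesterol synthesis lie below 0 and all 34 G2/M genes above it.

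Of 20 listed enzymes of cholesterol synthesis 17 were measured, and all 17 had a negative response difference, from -1.38 to -0.34 with a median of -0.87. None passed the adjusted test of the difference, and 16 had an unadjusted p below 0.05. With the mean of all probe sets Fdft1, squalene synthase, turned to 0.05 in place of -0.65. Mvk, mevalonate kinase, was the exception at -0.34 (unadjusted p = 0.2 by limma). The median response was -0.05 in PKBa -/-, -0.07 in line R and -0.89 in wild type. By the adjusted test no enzyme fell in PKBa -/-, where 0.0605% of all genes did, or in line R, where 0.143% did, and 10 fell in wild type, where 0.984% of all genes did. No enzyme had an unadjusted p below 0.05 for PKBa -/- minus line R.

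Cyp51, the sterol 14-alpha demethylase, read 2779.7, 2955 and 2607 in PKBa -/- cells at 4 h and 2411, 2400.0 and 2582 untreated. Line R read 1871, 2093 and 1752 at 4 h and 1880.3, 1585 and 1723 untreated, and wild-type cells read 928, 988 and 1524 at 4 h and 2135, 1963 and 1879 untreated. The wild-type groups do not overlap. Neither do the PKBa -/- groups, where the 4 h readings are the higher ones, and the line R groups overlap. The log2 changes were 0.17 in PKBa -/- and 0.14 in line R, neither of which passed. Cyp51 fell in wild type (-0.83 ± 0.17, limma adjusted p = 0.029). The response difference was -0.99 ± 0.20 (adjusted p = 0.21 by limma; 0.012 to 0.49 over the settings). Dhcr7, the reductase of the last step, read 745, 746 and 635 in PKBa -/- cells at 4 h and 748, 721 and 728 untreated, 434, 454 and 497 in line R at 4 h and 615, 445 and 521 untreated, and 310.0, 249.7 and 373 in wild-type cells at 4 h and 704, 544 and 690.4 untreated. It fell in wild type (log2 -1.07, adjusted p = 0.016 by limma), with a difference of -0.95 ± 0.21.

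Sqle, squalene epoxidase, which is a rate-limiting step after HMG-CoA reductase, fell by 0.70 on the log2 scale in wild type (adjusted p = 0.017 by limma). It read 5600.5, 5776 and 5008 in PKBa -/- cells at 4 h and 5385, 5474 and 6075 untreated, where the groups overlap, against 3454, 3460.4 and 4262 in wild-type cells at 4 h and 6122, 5968 and 5983 untreated. Lss, lanosterol synthase, fell by 1.14 in wild type (adjusted p = 0.022 by limma), with a response difference of -1.09 ± 0.24. Idi1, which isomerizes the isoprenoid building block, had the most negative difference of the list, -1.38 ± 0.31 (adjusted p = 0.24 by limma). It read 3709, 3952 and 4309.9 in PKBa -/- cells at 4 h and 2472, 2403 and 2974 untreated, 2577, 3007 and 2211 in line R at 4 h and 1915, 1471 and 1341 untreated, and 936, 1463 and 2194 in wild-type cells at 4 h and 2636, 2161 and 2286 untreated. The 4 h readings are above all untreated ones in PKBa -/- and line R, and the wild-type groups overlap; no change within a line passed (0.61, 0.73 and -0.71, adjusted p = 0.33, 0.21 and 0.17).

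The promoters of Cyp51 and Idi1 are shown, the members of the list with the smallest p and with the most negative difference. They run from 250 bases before to 50 after the annotated start, in RefSeq's GRCm38.p6, with Cyp51 at chr5:4104648-4104947 on the minus strand and Idi1 at chr13:8885356-8885655 on the plus strand. Capitals mark CCAAT, the motif of the factor NF-Y, or its reverse complement ATTGG.
Cyp51: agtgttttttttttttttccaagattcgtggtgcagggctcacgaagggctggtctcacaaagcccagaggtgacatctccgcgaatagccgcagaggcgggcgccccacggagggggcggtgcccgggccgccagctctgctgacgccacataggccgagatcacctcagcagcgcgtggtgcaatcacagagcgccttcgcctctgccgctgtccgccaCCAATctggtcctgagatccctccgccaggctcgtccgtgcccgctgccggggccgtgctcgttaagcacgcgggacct
Idi1: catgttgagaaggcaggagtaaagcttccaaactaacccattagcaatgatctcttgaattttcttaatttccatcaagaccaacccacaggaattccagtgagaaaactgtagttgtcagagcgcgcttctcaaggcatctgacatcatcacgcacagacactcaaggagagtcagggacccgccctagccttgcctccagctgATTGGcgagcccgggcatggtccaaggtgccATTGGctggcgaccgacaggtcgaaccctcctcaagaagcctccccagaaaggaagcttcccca
Cyp51 holds 1 such motif and Idi1 holds 2. CCAAT on either strand was found in all 14 promoters available of the list, and in 6070 of 14452 promoters of tested genes (42%). The sterol response letters TCACNCCAC were found in 1 of the 14 and in 1.46% of the tested genes' promoters. A match describes letters and not a bound site.

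Without the arrays that stand apart, the median difference of the cholesterol list was -0.62 with 13 enzymes at an unadjusted p below 0.05, where 4.06% of all genes had a lower response, and 3 enzymes in place of 10 fell in wild type, where 0.577% of all genes fell. A single wild-type array sets how many are called there: 1 enzyme passed without wild-type 4 h replicate 0 and 12 without wild-type 4 h replicate 2. The count was also 2 without untreated wild-type replicate 2, and 3 without untreated wild-type replicate 0 or wild-type 4 h replicate 1. It was 4 and 5 without PKBa -/- 4 h replicate 0 and 1, 5 without untreated wild-type replicate 1 and 6 without any 1 of the line R 4 h arrays. It was also 6 with equal array medians. The median difference stayed between -1.05 and -0.65 when any 1 array was left out.

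**Figure D4:**
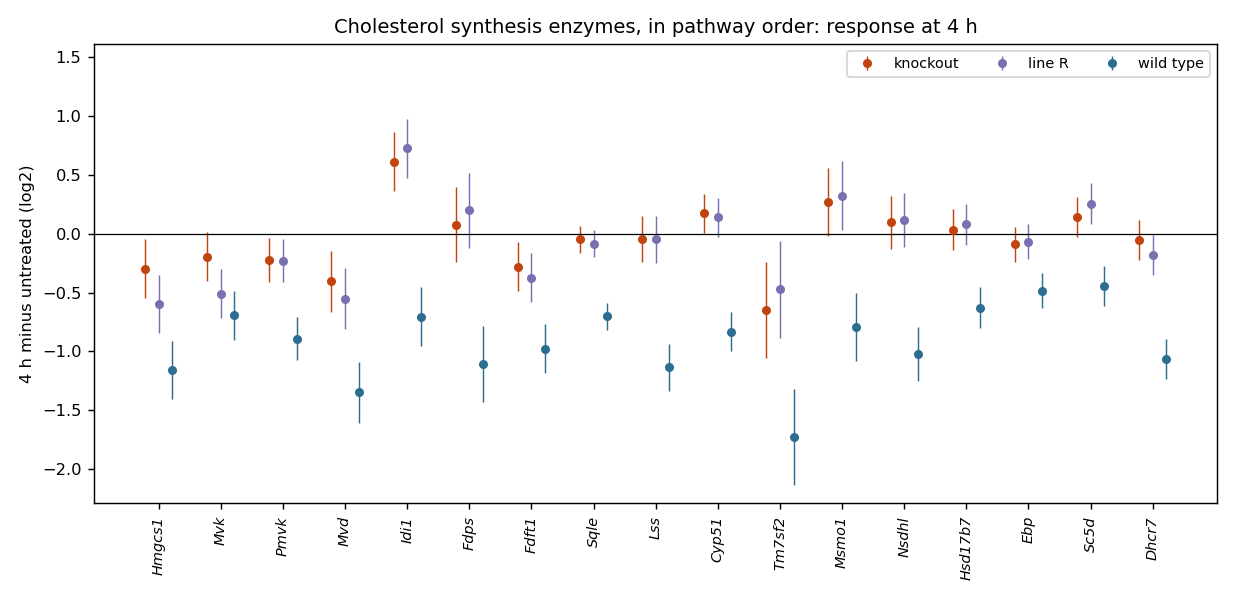
Response at 4 h (log2 of 4 h over untreated, ± SE) of the 17 measured enzymes of cholesterol synthesis in pathway order, in PKBa -/-, line R and wild type. The medians are -0.05 in PKBa -/- and -0.07 in line R, against -0.89 in wild type.

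Among genes of fatty acid synthesis, which SREBP1 controls, 13 of 15 had a negative difference, with a median of -0.31 and 5 at an unadjusted p below 0.05. The median response was -0.25 in PKBa -/-, -0.22 in line R and -0.58 in wild type. Of the 15 genes, 10, 9 and 14 were lower at 4 h in the same order of lines. By the adjusted test none fell in PKBa -/- (0.0605% of all genes did) or line R (0.143%), and 5 fell in wild type, where 0.984% did. Scd1, the stearoyl-CoA desaturase, read 4281, 3969 and 3638 in PKBa -/- cells at 4 h and 4482, 4548 and 3618 untreated, 2776, 2642 and 2874 in line R at 4 h and 3083, 2246 and 2793 untreated, and 2165, 2445 and 2311 in wild-type cells at 4 h and 4736, 4247 and 3787 untreated. The wild-type groups do not overlap, and the other lines' groups do. Scd1 fell in wild type (log2 -0.88, adjusted p = 0.017 by limma) and had a difference of -0.86 ± 0.18 (adjusted p = 0.22). The desaturases Fads2 (-0.92) and Scd2 (-0.58), the elongase Elovl6 (-0.77) and the acetyl-CoA synthetase Acss2 (-1.33) also fell in wild type (limma adjusted p = 0.019, 0.03, 0.019 and 0.032). Without the arrays that stand apart, 1 gene of this list had an unadjusted p below 0.05 for the difference and 3 fell in wild type. The number that fell was 0 without wild-type 4 h replicate 0, 1 without untreated wild-type replicate 2, and 3 without untreated wild-type replicate 0 or 1, wild-type 4 h replicate 1 or PKBa -/- 4 h replicate 1. With equal array medians it was 2. Of 12 measured sterol-sensing genes, 8 had a negative difference and 2 of these an unadjusted p below 0.05; Insig1, which retains SREBP in the endoplasmic reticulum when sterols are plentiful, had -0.82 ± 0.30 (adjusted p = 0.67).

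Genes of the G2 and M phases had the higher response in wild type in all 34 measured of 35 listed, from 0.23 to 1.02 with a median difference of 0.55. Of these 20 had an unadjusted p below 0.05, where 3.4% of all genes did in that direction. The median response was 0.09 in PKBa -/-, -0.18 in line R and 0.48 in wild type. By the adjusted test none passed in PKBa -/- (0.0934% of all genes did) or line R (0.198%). In wild type 5 genes rose, where 0.918% of all genes rose. They were Bub1 (0.68), Top2a (0.66), Foxm1 (0.57), Ttk (0.53) and Plk4 (0.88), with limma adjusted p of 0.032 to 0.044. Bub1 and Ttk encode spindle checkpoint kinases, Top2a the topoisomerase that untangles chromosomes, Foxm1 the factor that drives many genes of this list and Plk4 the kinase of centriole duplication.

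Cenpf, a kinetochore protein, had the smallest p of the list. It read 1421, 1283 and 1732 in PKBa -/- cells at 4 h and 1941, 1859 and 2139 untreated, 1141, 1235 and 1026 in line R at 4 h and 1859.8, 1933 and 1784 untreated, and 1963, 1689 and 1404 in wild-type cells at 4 h and 1109, 991 and 1658 untreated. The 4 h readings lie below the untreated ones in both lines without wild-type Akt1, and the wild-type groups overlap in 1 array each. The changes were -0.43, -0.72 and 0.45, none of which passed, and the difference was 1.02 ± 0.23 (limma adjusted p = 0.26; 0.0068 to 0.75 over the settings). Cdc25c, the phosphatase that activates CDK1 at entry into mitosis, read 320.4, 366 and 328 in PKBa -/- cells at 4 h and 597, 559 and 435 untreated, 303, 299 and 326 in line R at 4 h and 444, 596 and 535 untreated, and 457, 435 and 406 in wild-type cells at 4 h and 418, 320.2 and 440.1 untreated. Its difference was 0.85 ± 0.20 (adjusted p = 0.26 by limma), with changes of -0.64 in PKBa -/- and -0.75 in line R, against 0.15 in wild type.

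Cdc20, the activator of the anaphase-promoting complex, read 3779, 4971 and 5188 in PKBa -/- cells at 4 h and 5191, 5209 and 4947 untreated. Line R read 3086, 2933 and 3066 at 4 h and 6084, 5248 and 4902 untreated, and wild-type cells read 5842, 5592 and 6517 at 4 h and 4758, 4076 and 6243 untreated. Only line R has groups that do not overlap. The difference was 0.76 ± 0.20 (limma adjusted p = 0.38), and the change in line R was -0.83 (adjusted p = 0.06). Kif23, a kinesin of cytokinesis, had a difference of 0.69 ± 0.19 (adjusted p = 0.43).

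The promoters of Cenpf and Cdc20 are shown because both carry the paired CCAAT and TTTGAA letters that mark many genes of this list. TTTGAA is the core of the cell cycle homology region that the DREAM complex binds. They span chr1:189688037-189688336 and chr4:118437294-118437593 of GRCm38.p6 (RefSeq), both on the minus strand, with both motifs in capitals.
Cenpf: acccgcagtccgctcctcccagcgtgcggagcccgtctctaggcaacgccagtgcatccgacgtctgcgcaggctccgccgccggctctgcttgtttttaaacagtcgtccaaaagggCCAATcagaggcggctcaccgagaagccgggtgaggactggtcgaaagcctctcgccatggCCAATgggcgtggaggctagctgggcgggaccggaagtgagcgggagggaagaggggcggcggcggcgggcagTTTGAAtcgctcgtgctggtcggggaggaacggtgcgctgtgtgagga
Cdc20: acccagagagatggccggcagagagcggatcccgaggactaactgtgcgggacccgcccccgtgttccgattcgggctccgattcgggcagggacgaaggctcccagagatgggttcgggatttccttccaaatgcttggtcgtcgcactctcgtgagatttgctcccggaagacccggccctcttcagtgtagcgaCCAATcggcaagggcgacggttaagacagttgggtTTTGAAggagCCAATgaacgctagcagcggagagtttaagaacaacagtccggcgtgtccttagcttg
Each holds CCAAT at 2 places and TTTGAA at 1. Of 27 promoters available for the list, 20 held CCAAT on either strand (74.07%) and 19 held TTTGAA (70.37%), against 42% and 15.66% of the tested genes' promoters. TTTGAA was found in 1 of the 14 promoters of cholesterol synthesis.

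Without the arrays that stand apart, the median G2/M difference was 0.59 and 32 of the 34 genes had an unadjusted p below 0.05, where 5.82% of all genes did in that direction. Under that setting 3 genes fell in PKBa -/- (0.813% of all genes did), 1 fell in line R (0.198%) and 8 rose in wild type (1.17%). With any 1 array left out the median was 0.48 to 0.61 and the number at an unadjusted p below 0.05 was 15 to 24. The number that rose in wild type was 0 to 7, and it was 0 without any of 8 arrays, which were untreated wild-type replicate 0 or 1, wild-type 4 h replicate 0 or 1, PKBa -/- 4 h replicate 0 or 1, and line R 4 h replicate 0 or 2. It was 1 without untreated wild-type replicate 2 or untreated PKBa -/- replicate 0 or 1, 2 without PKBa -/- 4 h replicate 2, untreated line R replicate 2 or line R 4 h replicate 1, and 3 without wild-type 4 h replicate 2 or with equal array medians.

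Targets of p53 in arrest and feedback had a higher response in wild type in 12 of 15 genes, with a median difference of 0.71 and a range of -0.37 to 1.68. Of these 7 had an unadjusted p below 0.05. The median response was -0.01 in PKBa -/-, -0.03 in line R and 0.58 in wild type. Cdkn1a, Gtse1, Phlda3 and Plk2 rose in wild type by the adjusted test, where 0.918% of all genes did. No gene of the list rose or fell by that test in PKBa -/- (0.0934% of all genes did) or line R (0.198%).

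Cdkn1a, which encodes the cyclin-dependent kinase inhibitor p21, read 234, 284 and 193 in PKBa -/- cells at 4 h and 287, 328 and 138 untreated. Line R read 155, 121 and 172 at 4 h and 82.5, 148 and 126 untreated, and wild-type cells read 1492, 3452 and 1881 at 4 h and 813, 427 and 599 untreated. The wild-type groups do not overlap and the others do, and the untreated wild-type level is also above every reading of the other lines. Its log2 changes were -0.01 in PKBa -/- and 0.35 in line R, and it rose 3.6-fold in wild type (1.85 ± 0.38, limma adjusted p = 0.032). The difference was 1.68 ± 0.47 (adjusted p = 0.43 by limma; 0.024 to 0.71 over the settings).

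Gtse1, a G2 and S phase protein that restrains p53, read 609.6, 596 and 768 in PKBa -/- cells at 4 h and 742, 690.3 and 439 untreated, 511, 555 and 567 in line R at 4 h and 743, 442 and 634 untreated, and 883, 1379 and 1243 in wild-type cells at 4 h and 519.5, 426 and 432 untreated. It rose in wild type (log2 1.33, adjusted p = 0.023 by limma), where the groups are apart, and the difference was 1.34 ± 0.29 (adjusted p = 0.23; 0.027 without the arrays that stand apart). Ccng1, cyclin G1, a direct p53 target, read 1885, 1954 and 1957 in PKBa -/- cells at 4 h and 1851, 2084 and 2372 untreated, 2063, 2264 and 2047 in line R at 4 h and 1871, 2748 and 1966 untreated, and 5454, 9569 and 8977 in wild-type cells at 4 h and 4220.4, 3509.8 and 5765 untreated. Its difference was 0.89 ± 0.28 (limma adjusted p = 0.59), and 1.21 with adjusted p = 0.027 without the arrays that stand apart.

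Phlda3, which competes with PKB for membrane lipids, had a difference of 1.02 ± 0.24 (adjusted p = 0.26 by limma) and rose by 0.91 in wild type (adjusted p = 0.033). It read 1059.6, 1099 and 1154 in PKBa -/- cells at 4 h and 1413, 2309.7 and 1926 in wild-type cells at 4 h, against 1129, 1238 and 1192 in untreated PKBa -/- cells and 1039.6, 778 and 1159 in untreated wild-type cells. Plk2, a polo-like kinase, rose by 0.89 in wild type (adjusted p = 0.032) and had a difference of 0.84 ± 0.23. Mdm2, the ubiquitin ligase that removes p53, varied widely between replicates, with 1081, 3277 and 4555 in wild-type cells at 4 h and 1584, 1217 and 492 untreated. Its difference was 0.86 ± 0.68 (adjusted p = 0.97 by limma), and 1.38 (adjusted p = 0.097) without the arrays that stand apart. Wild-type 4 h replicate 0, an array that stands apart, has the lowest wild-type 4 h reading of Cdkn1a, Mdm2, Ccng1, Gtse1 and Phlda3.

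Without the 4 arrays, the median difference of the arrest list was 0.89 with 9 of 15 at an unadjusted p below 0.05 for a higher response, where 5.82% of all genes were. Gtse1 and Ccng1 passed the adjusted test of the difference, and 7 genes rose in wild type, where 1.17% of all genes did. With 1 array left out at a time, 6 to 9 genes had an unadjusted p below 0.05 and 0 to 5 rose in wild type, with 0 when untreated wild-type replicate 1 or wild-type 4 h replicate 1 was left out. The number that rose was 1 without untreated wild-type replicate 2, wild-type 4 h replicate 2 or PKBa -/- 4 h replicate 0 or 1, and 2 without untreated wild-type replicate 0 or wild-type 4 h replicate 0.

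Targets of p53 in cell death had a median difference of 0.70, with 10 of 11 measured positive and 2 at an unadjusted p below 0.05 (5 without the arrays that stand apart); 8 had a mean above background. Pidd1, a death-domain scaffold, had 0.90 ± 0.35, Apaf1, the core of the apoptosome, 0.67 ± 0.27, and Bbc3, the BH3-only protein PUMA, 0.80 ± 0.38 (limma adjusted p = 0.69, 0.72 and 0.82). Aen, an apoptosis-enhancing nuclease, was the 1 gene of this list that rose in wild type (log2 1.16, adjusted p = 0.048 by limma), and its response difference was 0.70 ± 0.33; the rise no longer passed without any 1 of 14 arrays. The targets in repair and metabolism had a median of 0.27, with 9 of 12 positive and 2 at an unadjusted p below 0.05. Polh, the translesion polymerase eta, rose in wild type by 0.78 (adjusted p = 0.01) and had a difference of 0.34 ± 0.13, which was -0.43 with the mean of all its probe sets.

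**Figure D5:**
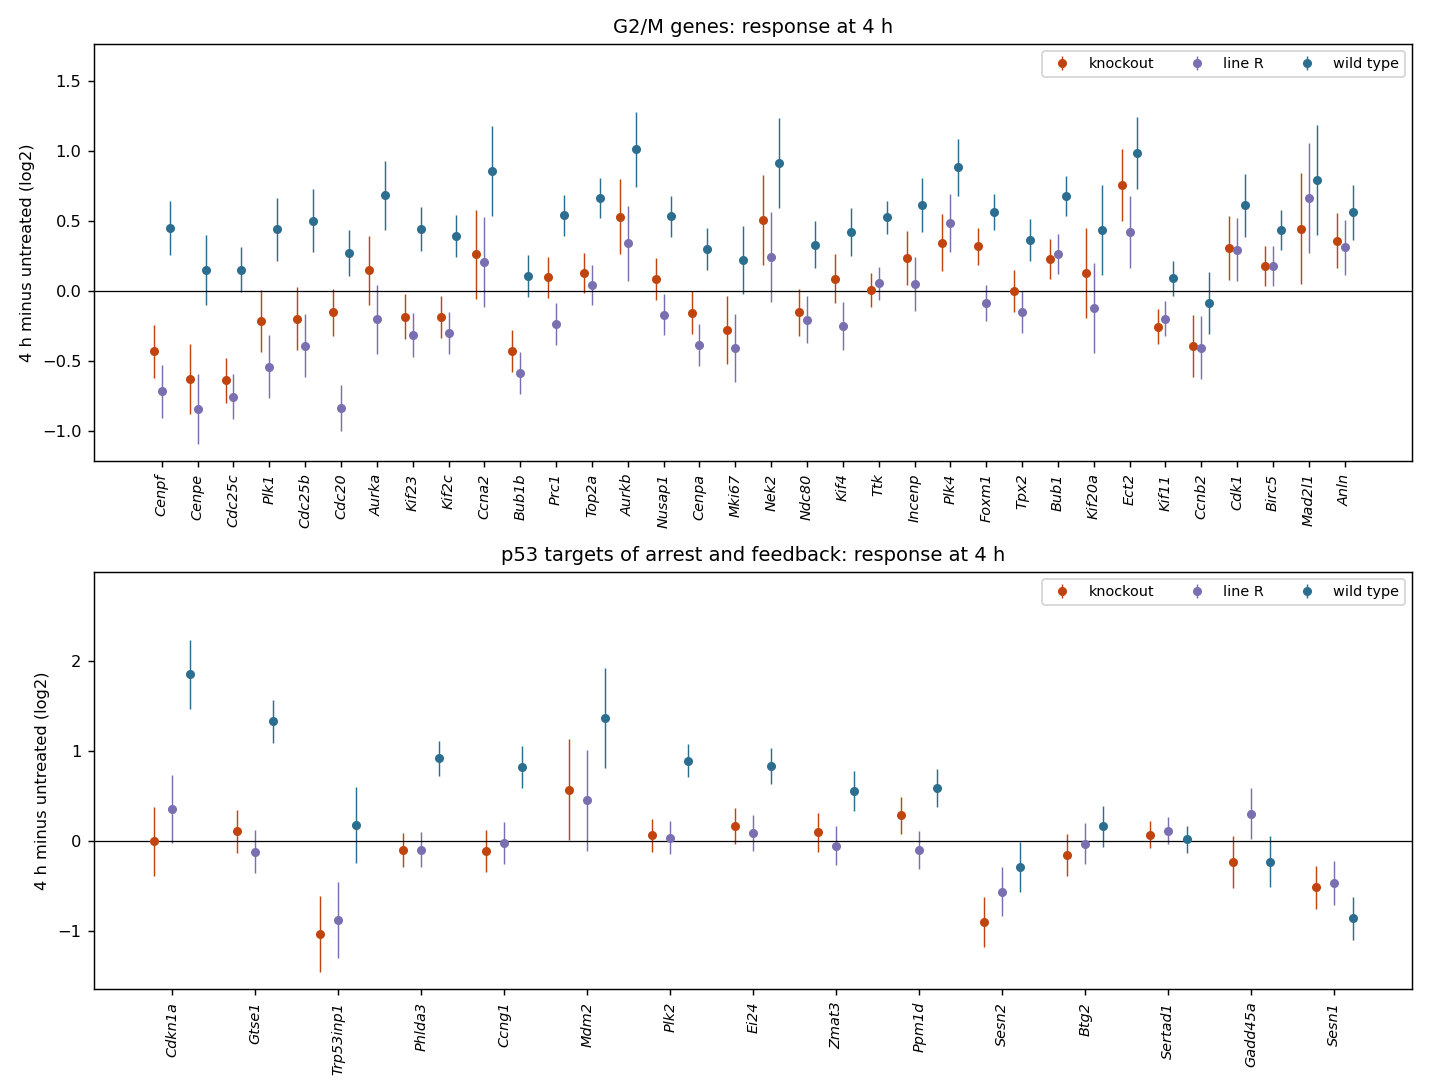
Response at 4 h (log2 of 4 h over untreated, ± SE) of 34 G2/M genes and 15 p53 targets of arrest and feedback in PKBa -/-, line R and wild type. The medians of the G2/M genes and the p53 targets are 0.09 and -0.01 in PKBa -/- and -0.18 and -0.03 in line R, against 0.48 and 0.58 in wild type.

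Genes of S phase and E2F targets were higher at 4 h at the median in every line, with 0.42 in PKBa -/-, 0.49 in line R and 0.59 in wild type, and their median difference of 0.15 was small beside that of the G2/M list. Of 32 measured genes 27 had a positive difference, and 2 had an unadjusted p below 0.05 for a higher and 1 for a lower response. In wild type 7 rose, where 0.918% of all genes did, among them Rrm2, a ribonucleotide reductase subunit (1.13, limma adjusted p = 0.0072), Mcm10, a replication initiation factor (1.08, adjusted p = 0.016; its response difference was 0.41, and -0.07 with the mean of all its probe sets), and Ccne2, cyclin E2 (1.77, adjusted p = 0.033). Homologous recombination genes had a median difference of 0.21, 12 of 17 positive and 3 at an unadjusted p below 0.05. Their median response was 0.32 in PKBa -/-, 0.31 in line R and 0.49 in wild type, with 14, 13 and 15 of the 17 higher at 4 h. The 3 that rose in wild type (0.918% of all genes did) were Brca1 (0.90, adjusted p = 0.009), Exo1 (1.24, adjusted p = 0.0066) and Rad51ap1 (0.75, adjusted p = 0.016), by limma. The number that rose was 2 to 4 with any 1 array left out. The genes of break sensing and end joining had a median of 0.17 and none of 19 at an unadjusted p below 0.05. Without the arrays that stand apart, 10 S phase genes, 6 of homologous recombination and 2 of break sensing had an unadjusted p below 0.05 for a higher response in wild type, where 5.82% of all genes did. The median difference of the S phase list was then 0.29. The number of S phase genes that rose in wild type was 2 or 3 with any 1 wild-type array left out, and 4 without PKBa -/- 4 h replicate 0 or 1 or line R 4 h replicate 2.

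Feedback inhibitors of ERK signalling had mostly the lower response in wild type, with a median difference of -0.51, 10 of 12 negative and 3 at an unadjusted p below 0.05. Without the arrays that stand apart the median was -0.73, with 2 lower at an unadjusted p below 0.05, where 4.06% of all genes were. Spry2, which inhibits signalling from receptor tyrosine kinases, read 651, 578 and 521 in PKBa -/- cells at 4 h and 374, 373 and 238 untreated, 431, 268 and 433 in line R at 4 h and 214, 109 and 152 untreated, and 849, 666 and 838 in wild-type cells at 4 h and 908, 864 and 676 untreated. The 4 h readings are all above the untreated ones in PKBa -/- and line R, and the wild-type groups overlap. The difference was -1.12 ± 0.33 (adjusted p = 0.5 by limma). Dusp5, an ERK phosphatase, had -1.43 ± 0.46 (adjusted p = 0.61). It read 422, 364 and 229 in PKBa -/- cells at 4 h and 133, 120.3 and 91 untreated, and 974, 656 and 883 in wild-type cells at 4 h and 1020.3, 829 and 1126 untreated. The only member that changed by the adjusted test within a line was Dusp6, which rose in line R (1.47, limma adjusted p = 0.044), a call lost without any 1 of 12 arrays.

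The PI3 kinase, Akt and mTOR list, which includes Thbs1, also a member of the extracellular matrix list, had a median of 0.03. In it 13 of 25 were positive and none had an unadjusted p below 0.05. Its median was -0.07 without the arrays that stand apart, with 9 of 25 positive and 3 lower at an unadjusted p below 0.05, where 4.06% of all genes were. The list of FOXO targets, which also holds Foxo1, Foxo3 and Foxo4, had a median of -0.22. Of its 18 genes 2 were lower at an unadjusted p below 0.05, and 3 without those arrays. Lysosome genes were negative in 17 of 18, with a median of -0.25, and amino acid stress targets of ATF4 were positive in 19 of 21, with a median of 0.24, and neither list had a gene at an unadjusted p below 0.05. Without those arrays 3 lysosome genes and no ATF4 target were at that level, and with equal array medians 1 lysosome gene was. Immediate early genes had a median of -0.06, with 1 gene at that level for a higher and 2 for a lower response, and 1 and 4 without those arrays.

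Extracellular matrix genes had a median difference of 0.04, with 15 of 28 positive. The median was -0.03 with 12 positive when the arrays that stand apart were left out. In wild type 3 of them fell, where 0.984% of all genes did, and 1 fell without untreated wild-type replicate 2. They were Thbs2, Postn and the collagen gene Col3a1 (log2 -0.52, limma adjusted p = 0.029). The response difference of Col3a1 was -0.17, and 0.13 with the mean of all its probe sets. The median response of the matrix list was -0.31 in PKBa -/-, -0.33 in line R and -0.38 in wild type. Of its 28 genes, 25 were lower at 4 h in PKBa -/-, 25 in line R and 21 in wild type. Thbs2, the matricellular protein thrombospondin 2, read 4461, 4555 and 4926 in PKBa -/- cells at 4 h and 4922, 4803 and 5478 untreated, 3760.0, 3889.9 and 3754 in line R at 4 h and 4942, 4125 and 3968 untreated, and 2030.2, 1081 and 1197 in wild-type cells at 4 h and 3377, 4985 and 2919 untreated. It fell in wild type (log2 -1.41, adjusted p = 0.016 by limma), and its difference of -1.25 ± 0.28 (adjusted p = 0.24) passed without the arrays that stand apart. Postn, periostin, fell by 1.83 in wild type (adjusted p = 0.017 by limma), with 1553, 1308 and 732 at 4 h and 5071, 2353 and 5619 untreated, and had a difference of -1.49 ± 0.37 (adjusted p = 0.34). The 12 fibroblast markers had a median difference of -0.12, with 5 positive and 7 negative and 1 at an unadjusted p below 0.05. That gene was Thy1, a surface glycoprotein of fibroblasts, which fell in wild type by 1.57 (adjusted p = 0.017) with a difference of -1.25 ± 0.31 (adjusted p = 0.35).

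Each line was also tested against its own untreated cells. In PKBa -/- 17 genes changed, 6 higher (0.033%) and 11 lower (0.0605%), which is 0.0934% in all. In line R 36 changed, 10 higher (0.055%) and 26 lower (0.143%), or 0.198%. In wild type 346 changed, 167 higher (0.918%) and 179 lower (0.984%), or 1.9%, of which 20 were below background in all groups. The shares at an unadjusted p below 0.05 were 12.4%, 13.7% and 16% in the same order, which is closer than the counts of calls. With all array medians set equal, the wild-type calls were 189 higher and 95 lower, those of PKBa -/- 8 and 6, and those of line R 17 and 15. That scaling moved the median response of all genes by 0.1077 in PKBa -/-, 0.1416 in line R and 0.1003 in wild type. Without the arrays that stand apart, 294 genes (1.62%) changed in PKBa -/-, 0.803% higher and 0.813% lower, 50 (0.275%) in line R, 0.077% higher and 0.198% lower, and 317 (1.74%) in wild type. With 1 array left out the wild-type count was lowest, at 44, without wild-type 4 h replicate 0, and highest, at 530, without untreated line R replicate 1. It was 106 without wild-type 4 h replicate 1, 153, 80 and 76 without untreated wild-type replicates 0, 1 and 2, 137, 150 and 213 without PKBa -/- 4 h replicates 0, 1 and 2, 224 without untreated PKBa -/- replicate 1, and 208 and 172 without line R 4 h replicates 0 and 2. The line R count was 243, 10 and 5 without its own untreated replicates 0, 1 and 2, 4 and 7 without its 4 h replicates 0 and 2, and 56 without untreated wild-type replicate 2. The PKBa -/- count was 77 and 47 without untreated line R replicates 0 and 1. It was 0 to 2 without any 1 of the 6 PKBa -/- arrays, the line R 4 h arrays, wild-type 4 h replicate 0 or 1, or untreated wild-type replicate 0.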

How the data were processed

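Linear intensity values of 45101 probe sets, 1 column per array, were used as deposited by the authors. RMA and GCRMA appear in the submitters' processing notes; the method that made the deposited values is not given in the sources used here, and it may be neither. The values are linear, reach down to 0.00523, and have a mean of about 500.003 on each array after trimming 2% at each end, so each array had been scaled to a common mean, which is not a usual step of either. Log differences at low intensity are therefore uncertain in scale.

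Values were converted to log2 with no offset. Of the probe sets, 34945 had 1 gene symbol in the platform annotation, 932 several and 9160 none, and 64 were controls; 34741 were matched to RefSeq. For each of 18193 genes the probe set with the highest mean log2 value across the 27 arrays was taken. A model of 6 group means was fitted to 18 arrays with limma 3.58.1 in R 4.3.3 (lmFit and eBayes, 12 residual degrees of freedom, Benjamini-Hochberg adjustment over all genes within a contrast, threshold 0.05), and checked on simulated data. Differences are means ± SE. An exact permutation test of 3 arrays against 3 cannot go below p = 0.1. Precision is limited by how many arrays there were.

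Alternatives were other scalings, filters, offsets, probe set summaries, fits, a replicate block and leaving out arrays. Named genes were Akt1, Akt2, Cdkn1a, Mdm2 and Ccng1, the called genes above background and, in each list, up to 4 members with the smallest p; other names are said to be chosen after their values were seen, as are genes named for a change within 1 line. The members, the 35 lists and the rule were chosen with earlier results of these data known.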

Additional observations from a re-analysis of the deposited data

Results flagged for a closer look

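Responses that differed between lines by limma's test of the difference itself were looked at again. Ebf3 differed by -1.34 between wild type and the mean of the other lines, by -1.32 against PKBa -/- and by -1.36 against line R. Nkd1 differed by -2.64 from the mean of the other lines and by -3.04 from line R; against PKBa -/- alone it was -2.23 ± 0.40 (limma adjusted p = 0.14), and both lines lay at background. D630004K10Rik differed by 3.51 from the mean, 3.14 against PKBa -/- and 3.88 against line R, with 1 of 6 group means above background. C430042M11Rik differed by 5.03 from the mean and 5.53 against PKBa -/-, with no group mean above background.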

How the results depend on the processing

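The number of genes with a different response in wild type was 4, and 2 with the mean of all probe sets, 17 without the arrays that stand apart and 166 there with an intensity trend in the prior (a setting added after seeing the data). Among the 166 was Ebf3 (adjusted p = 0.034 by limma), but not Nkd1, D630004K10Rik or C430042M11Rik. Against PKBa -/- the number was 3, and 1 with a replicate block, 0 with the trend, 6 with array weights and 49 with the trend without the arrays that stand apart. Against line R it was 3, and 0 with the trend, 1 with the mean of probe sets, 6 without those arrays and 52 there with the trend. PKBa -/- minus line R gave 0, and 1 with each probe set tested. Genes changed in PKBa -/- numbered 17, and 4 with the block, 67 with all 27 arrays, 0 with quantile normalization, 174 with the trend, 308 over genes above the median, 37 with an offset, 10 with the mean of probe sets, 817 with weights, 294 without those arrays and 1176 there with the trend. Line R gave 36, and 178, 281, 526, 72, 8, 542 and 825 with 27 arrays, trend, genes above the median, offset, mean of probe sets, weights, and the trend without those arrays. Wild type gave 346, and 137 with the block, 592, 707, 1006, 76 and 698 with 27 arrays, trend, genes above the median, mean of probe sets and weights, 140 with each probe set, and 1284 with the trend without those arrays. Leaving out 1 array gave 4 to 14 for the difference, 1 to 9 against PKBa -/-, 1 to 7 against line R, 0 to 2 for PKBa -/- minus line R, and 0 to 77 in PKBa -/-, 4 to 243 in line R and 44 to 530 in wild type. The cause was not tested, except that some settings test fewer genes or arrays. No called difference changed sign. Among values not called, 20 gene differences and 15 list medians did under some alternative, among them Akt1 (-0.39, and 0.27 without untreated PKBa -/- replicate 0), immediate early genes (-0.06, up to 0.05 with 1 array left out), extracellular matrix (0.04, down to -0.03) and the PI3 kinase list (0.03, down to -0.12). Replicate numbers did not pair the arrays: same-numbered arrays correlated by -0.547 to 0.638 over 45 pairs, and 5 of 18 arrays correlated best with their own number. With the replicate block the difference gave 4 genes. Of the gene values under alternatives, 4749 kept their side of the threshold, 72 passed newly, 10 no longer passed and 26 moved.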

Other observations

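Among the genes called without the 4 arrays that stand apart were several with all groups well above background that the full fit did not call; they were named after their values were seen. Dcxr, a dicarbonyl and xylulose reductase, read 479.6, 501 and 449.6 in PKBa -/- cells at 4 h and 1080.3, 1042 and 1102 untreated, and 336, 323 and 339 in line R at 4 h and 752, 773 and 777 untreated. In wild-type cells it read 523, 1333 and 989.6 at 4 h and 816, 742 and 1116 untreated, where the lowest reading is from replicate 0, an array that stands apart. Its response difference without those arrays was 1.74 ± 0.16 (adjusted p = 0.019 by limma). Ckap2, a spindle protein, read 2836, 2871 and 3018 in PKBa -/- cells at 4 h and 3109, 3275 and 1891 untreated, 2149, 2170.2 and 2188 in line R at 4 h and 2724, 1509 and 2392 untreated, and 4200.0, 4908 and 4282 in wild-type cells at 4 h and 2341, 2399 and 1624 untreated. Its difference there was 1.14 ± 0.12 (limma adjusted p = 0.027). In each untreated group the lowest Ckap2 reading is from an array that stands apart; the part of those arrays' signal ratio in these values was not tested.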
